A study of Mus musculus with 9 samples.

Results

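The genes that carry a cell from G2 through mitosis to cytokinesis were followed in the cortex of mouse embryos lacking Cnot3. The set holds 44 genes, taken by symbol from a list of mitotic genes that leaves out the kinesin motors apart from Cenpe, and each symbol matched 1 of the 57010 genes in the count table. All 44 had more than 10 reads in every embryo and were tested among 13680 genes. RNA was sequenced from cortical tissue of single embryos at E12.5 (E for embryonic day), with 3 embryos for each genotype and 1 library for each embryo. The control embryos (Ctrl) carry the genotype label WT, and whether they hold floxed alleles or Cre is not given in the labels. In Cnot3 cKO embryos, loxP-flanked alleles of Cnot3 (Cnot3 lox/lox) are cut out by Emx1-Cre, which acts in radial glia of the dorsal telencephalon and so in the neurons born from them. In Cnot3;Trp53 dcKO embryos the same Cre also removes loxP-flanked Trp53 (Trp53 lox/lox). Blood, vessels, meninges and other cells of the dissected tissue keep their alleles in both mutants.

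Entry into mitosis is driven by Cdk1 with its cyclins. Kinetochores then attach chromosomes to the spindle, and unattached kinetochores signal through the spindle checkpoint to hold back the anaphase-promoting complex, the ubiquitin ligase that releases sister chromatids and ends mitosis, after which a contractile ring divides the cell. Most of these genes are transcribed late in the cycle of dividing cells and silenced in neurons, so that in the E12.5 cortex their transcripts come largely from radial glia and intermediate progenitors. Cnot3 is a subunit of the CCR4-NOT complex, which shortens mRNA poly(A) tails, and Trp53 encodes p53, a transcription factor that arrests or kills stressed cells.

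Libraries held 21193798 to 45073349 counted reads, and values are given as TMM-normalized CPM (reads of a gene scaled to a common library size). Cnot3 measured 117, 107 and 98.2 CPM in Ctrl, 15.0, 17.3 and 14.6 CPM in cKO and 7.33, 48.2 and 19.0 CPM in dcKO. Trp53 measured 237, 254 and 215 CPM in Ctrl, 167, 164 and 167 CPM in cKO and 15.1, 110.4 and 20.6 CPM in dcKO. The second dcKO embryo thus kept the most Cnot3 of the mutants and the most Trp53 of its genotype, and the dcKO embryos were unequal in other genes too, so the medians of the groups of genes and the calls in dcKO are also given without its second and without its last embryo. Radial glia markers (8 of 8 genes with reads) summed to 2795 to 3199 CPM in Ctrl, 2736 to 3300.1 in cKO and 2838 to 3159 in dcKO. Their members went different ways, with Nes below Ctrl (1029.8 to 1085 CPM) in every cKO (568 to 753) and dcKO embryo (562 to 958), Pax6, Hes1 and Hes5 below Ctrl in every cKO embryo, and Vim above it (1659 to 2029.9 against 1159 to 1496 CPM) in every cKO embryo. The neuron markers (8 of 8) summed to 1459 to 1906, 1089 to 1544 and 929 to 1847 CPM, and the dorsal telencephalon markers to 834 to 1391, 598 to 670.4 and 796 to 1061 CPM. Of these, Tubb3, Dcx, Map2, Bcl11b, Emx1, Emx2 and Lhx2 lay below Ctrl in every cKO embryo. The subpallium markers, led by Dlx2 and Gad2, summed to 5.95 CPM in the second dcKO embryo and to at most 0.489 CPM in any other. The intermediate progenitor markers summed to 385 to 485, 352 to 431 and 332 to 663 CPM, with Btg2 below Ctrl (80.1 to 97.2) in every cKO embryo (68.0 to 74.5). The sum of the 5 meningeal markers was lower in every mutant embryo, as were its collagen genes Col1a1, Col1a2 and Col3a1 while Lum and Dcn overlapped Ctrl, at 770.4 to 848 CPM in Ctrl, 444 to 678 in cKO and 316 to 511 in dcKO, and the sums of erythroid markers did not overlap between the mutants (5122 to 7404, 6551 to 10674 and 3550.1 to 5154 CPM). In dcKO the sums of endothelial (106 to 115 against 168 to 222 CPM in Ctrl), microglial (12.3 to 23.8 against 27.1 to 34.2) and Cajal-Retzius markers (60.5 to 83.2 against 98.7 to 127) lay below Ctrl in every embryo, through Pecam1, Kdr and Cdh5 of the 4 endothelial, Cx3cr1 and Csf1r of the 4 microglial and Reln of the 3 Cajal-Retzius genes, the others overlapping Ctrl. The sums in cKO overlapped Ctrl (165 to 225, 28.2 to 57.7 and 91.4 to 148). The sum of the choroid plexus markers Ttr and Folr1 was above Ctrl (0.204 to 0.865 CPM) in every cKO (7.95 to 40.3) and dcKO embryo (3.75 to 61.7), although Folr1 in the second dcKO embryo lay within the Ctrl range. The part of these other cell types in the results was not tested. In bulk tissue, fewer dividing cells and less RNA per cell cannot be told apart.

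The 44 genes were plainly expressed in control cortex. Together they took 8555 to 9471 CPM of a Ctrl library, 9214 to 10123 of a cKO library and 9035 to 12697 of a dcKO library, so no embryo of either mutant lay below the Ctrl range. Per kilobase of the longest annotated transcript, the mean level in Ctrl was highest for Kpna2, an importin that carries spindle factors, at 351 ± 51.5 CPM per kb (SD, n = 3). Next came Top2a, the topoisomerase that untangles chromosomes, at 186 ± 14.4, and Cks1b, a small subunit of Cdk complexes, at 157 ± 5.86. The lowest was Pttg1, encoding securin, at 6.62 ± 0.467. Annotated transcripts of other genes (GENCODE M21) include near-identical copies of Ccnb1, Cks2, Kpna2, Mad2l1 and Mki67 (at least 95% identity over at least 200 bases). The counting may have divided reads among such copies, so the levels of these genes are uncertain.

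Many of these promoters share sequence, which the choice of genes did not use. Late cell cycle promoters are known for the cell cycle genes homology region (CHR), bound by the DREAM and MuvB complexes, and for CCAAT boxes, bound by NF-Y. Promoter windows from 250 bases before to 50 bases after the RefSeq start (GRCm38.p6) were at hand for 37 of the 44 genes, all but Ccna2, Cdc25c, Aurkb, Incenp, Spc24, Smc4 and Tpx2. TTTGAA or TTCGAA, the CHR letters searched on both strands, stood in 27 of the 37 (73.0%), against 21.6% of 26988 other genes with windows. CCAAT stood on either strand in 29 of them (78.4%), against 41.0% of the other genes, and both kinds of letters in 25 (67.6%) against 8.50%. Stretches around the match nearest the start are printed 5′ to 3′ on the strand of the gene, with the CHR letters or their reverse complement in capitals. The first 3 belong to genes that were lower in all 6 mutant embryos, the next 3 to genes that were higher in all 6, and the last 2 to the central kinase and the most abundant gene of the set by CPM.
Cks1b, chr3:89418291-89418320, minus strand: gcgggcggtgtgTTTGAAagcgaggccaaa
Cenpa, chr5:30666890-30666915, plus strand: ggcgggtgatttTTTGAActgctggc
Racgap1, chr15:99651634-99651663, minus strand: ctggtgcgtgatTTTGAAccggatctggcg
Hmmr, chr11:40733412-40733441, minus strand: agttgaggtaaaTTTGAAttcaggcgagct
Prc1, chr7:80294434-80294463, plus strand: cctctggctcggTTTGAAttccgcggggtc
Ect2, chr3:27153825-27153851, minus strand: cgactggattttTTTGAAtcggaggcg
Cdk1, chr10:69352910-69352939, minus strand: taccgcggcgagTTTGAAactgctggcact
Top2a, chr11:99024195-99024224, minus strand: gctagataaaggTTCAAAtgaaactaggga
The letters were thus found in genes that lay on both sides of the control level, but only genes that hold the letters could be printed. Of the other genes higher in all 6 mutant embryos, Ndc80 holds them as well. Cks2, Nuf2, Ncaph and Nusap1 do not, and Cdc25c had no window. The 27 genes with CHR letters had a median log2 fold change of 0.09 in cKO and 0.32 in dcKO, and the 10 without them (Ccnb1, Cks2, Birc5, Mad2l1, Nuf2, Cenpe, Fzr1, Pttg1, Ncaph and Nusap1) 0.29 and 0.50, a difference that was not tested. Without the second and without the third dcKO embryo the dcKO medians were 0.19 and 0.59 with the letters and 0.39 and 0.70 without them.

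Differences in the mutants were modest and went both ways. A gene was called where edgeR's quasi-likelihood test, fitted to all 9 embryos, gave a p-value under 0.05 after Benjamini-Hochberg adjustment and the log2 fold change lay beyond 1 in either direction. None of the 44 was called in cKO against Ctrl (background 0.0146%, 2 of 13680 genes), in dcKO against Ctrl (background 0%) or in dcKO against cKO (background 0.0146%), and none passed on the adjusted p-value alone. In cKO 30 of the 44 had a log2 fold change above 0 and 14 below, with a median of 0.11 against 0.01 over all tested genes. Without the second cKO embryo the cKO median of the 44 was 0.18, and with a GC correction described below 0.02. In dcKO the numbers were 30 and 14, with a median of 0.36 against 0.11. Without the second dcKO embryo the median of the 44 was 0.24, and without the third 0.54. Both comparisons use the same Ctrl embryos. Scaling by upper-quartile factors moved the median of all tested genes in cKO to 0.12 and that of the 44 genes to 0.22, with 35 above 0.

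At an unadjusted p-value under 0.05 in edgeR, 7 of the 44 genes were higher in cKO (15.9%, background 15.3%) and 2 lower (4.55%, background 11.7%), and 15 were higher in dcKO (34.1%, background 18.0%) and 2 lower (4.55%, background 11.2%). In cKO the share of higher genes was near that of all tested genes and the share of lower genes was smaller, and in dcKO the share of higher genes was larger, differences that were not tested. DESeq2, at an adjusted p-value under 0.05 with no fold limit, passed 3 higher (Pttg1, Ncaph and Hmmr; background 9.60%) and 2 lower genes in cKO (Cks1b and Cenpa; background 7.07%). In dcKO it passed 6 higher (Cks2, Ndc80, Nuf2, Hmmr, Ect2 and Prc1; background 10.3%) and 1 lower (Cks1b; background 7.40%). When edgeR was fitted to the 6 Ctrl and cKO embryos alone, 15 genes passed an adjusted p-value of 0.05 upward (background 24.0%) and 5 downward (background 24.2%), all with changes of less than 1 on the log2 scale. The same fit for the 6 Ctrl and dcKO embryos passed 0 (background 0%), with 10 at an unadjusted p-value under 0.05 (background 19.6%).

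Counted by embryo, all 3 cKO values lay above all 3 Ctrl values for 17 of the 44 genes (38.6%, background 29.2%) and below them for 6 (13.6%, background 28.0%). For dcKO the counts were 9 (20.5%, background 15.6%) and 4 (9.09%, background 11.2%). All 6 mutant embryos lay above all Ctrl embryos for 9 genes (Cks2, Cdc25c, Ndc80, Nuf2, Ncaph, Nusap1, Hmmr, Ect2 and Prc1) and below them for 3 (Cks1b, Cenpa and Racgap1), against 13.0% and 8.98% of all tested genes. For 3 embryos against 3 the exact two-sided permutation test cannot give a p-value below 0.1, which is its value for each gene whose groups did not overlap.

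**Figure D1:**
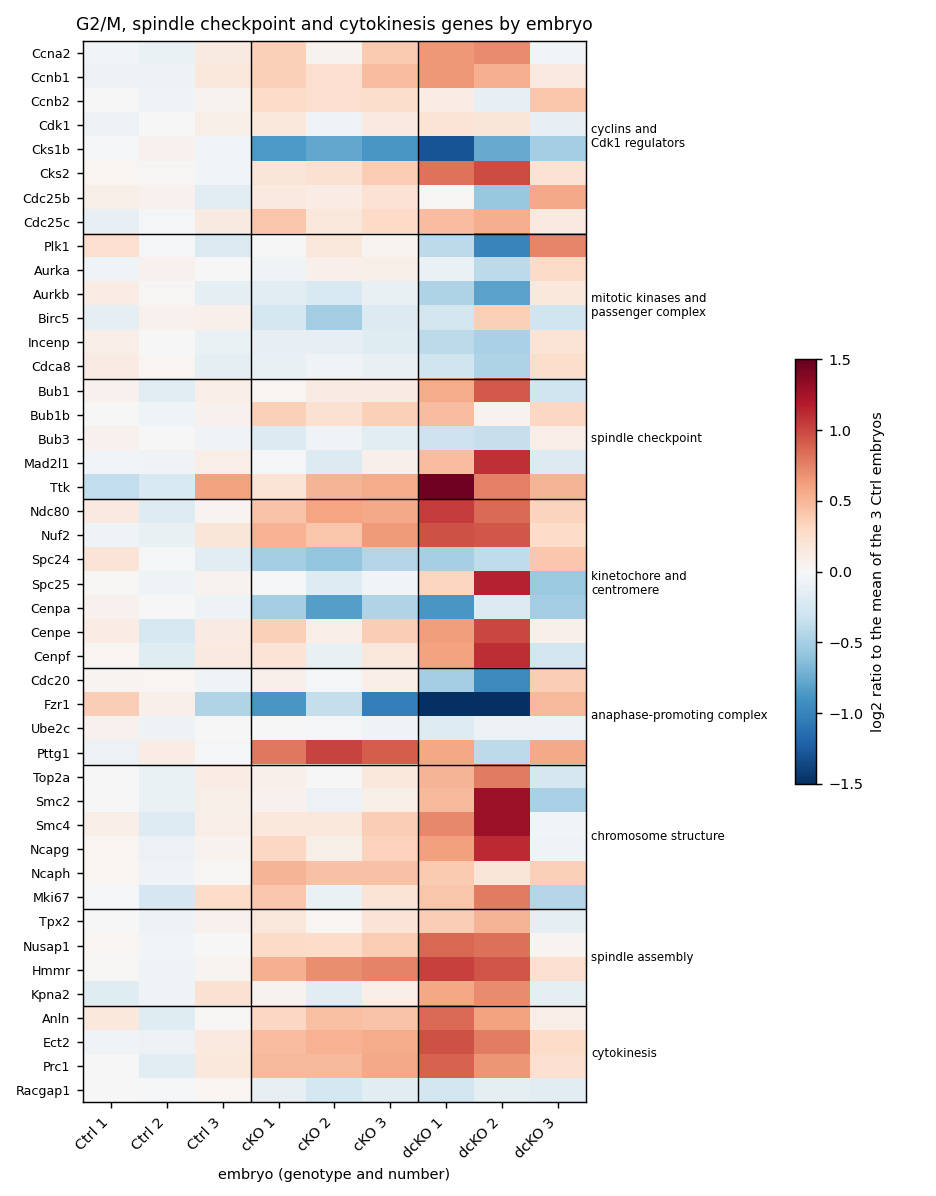
The log2 ratio of each gene to the mean of the 3 Ctrl embryos is plotted as colour for the 44 genes (rows, in 8 role groups) in each embryo (columns), red for higher and blue for lower, with values beyond 1.5 drawn at the end of the scale. Cks1b, Cenpa and Racgap1 are blue in every mutant embryo, and many rows change colour between the first 2 dcKO embryos and the third.

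Among the cyclins and Cdk1 regulators, most genes lay at or above the control level and Cks1b stood apart below it. Of the 8 genes in this group, 7 were above 0 on the log2 fold change scale in cKO (median 0.26, from -0.84 to 0.36) and 7 in dcKO (median 0.27, from -0.82 to 0.70, with a median of 0.31 without the second dcKO embryo and 0.35 without the third), and after a correction for GC content 6 and 5 were. Cks1b (ENSMUSG00000028044.7), which helps Cdk complexes and the SCF ligase recognise phosphorylated proteins, measured 132, 139 and 129 CPM in Ctrl, 73.3, 77.6 and 72.5 CPM in cKO and 54.1, 78.9 and 93.7 CPM in dcKO. Every mutant embryo lay below every Ctrl embryo, and log2 fold changes were -0.84 ± 0.20 in cKO (adjusted p = 0.052, edgeR) and -0.82 ± 0.20 in dcKO (adjusted p = 0.052, edgeR). DESeq2 gave adjusted p-values of 0.0036 and 0.0037. Its close relative Cks2 had log2 fold changes above 0, of 0.27 ± 0.20 in cKO and 0.70 ± 0.20 in dcKO. Ccnb1, encoding cyclin B1, had the highest CPM of this group in Ctrl and measured 318, 321 and 378 CPM in Ctrl, 433, 402 and 467 CPM in cKO and 529, 489 and 374 CPM in dcKO. All cKO embryos were above Ctrl, while the third dcKO embryo lay within the Ctrl range, and log2 fold changes were 0.36 ± 0.18 in cKO (adjusted p = 0.23, edgeR) and 0.45 ± 0.18 in dcKO (adjusted p = 0.13, edgeR). Ccna2 and Ccnb2, the other mitotic cyclins, had log2 fold changes of 0.27 and 0.26 in cKO, and Cdk1 itself of 0.09 in cKO and 0.09 in dcKO (-0.07 and -0.12 after the GC correction). The Cdk1-activating phosphatases Cdc25b and Cdc25c had 0.15 and 0.29 in cKO. After the GC correction the log2 fold changes in cKO and dcKO were 0.07 and 0.14 for Ccna2, 0.11 and 0.03 for Ccnb1 and 0.17 and 0.06 for Ccnb2. They were 0.03 and 0.29 for Cks2, 0.30 and 0.31 for Cdc25b and 0.04 and -0.03 for Cdc25c. In cKO, leaving out 1 embryo (named by genotype and number) moved by over 1.5 times or turned Cdk1 (0.04 without cKO 3 to 0.15 without cKO 2) and Cdc25b (0.08 without Ctrl 3 to 0.20 without Ctrl 1). In dcKO, leaving out 1 embryo moved or turned Ccnb2 (-0.0043 without dcKO 3 to 0.27 without dcKO 2), Cdk1 (0.03 without dcKO 1 to 0.19 without dcKO 3) and Cdc25b (-0.25 without dcKO 3 to 0.31 without dcKO 2).

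The mitotic kinases and the chromosomal passenger complex lay close to or slightly below control. Of the 6 genes in this group, 2 were above 0 on the log2 fold change scale in cKO (median -0.12, from -0.32 to 0.06) and 0 in dcKO (median -0.09, from -0.31 to -0.04, with a median of -0.03 without the second dcKO embryo and -0.41 without the third), and after a correction for GC content 3 and 2 were. Birc5, which encodes survivin and anchors the passenger complex at centromeres, measured 102, 117 and 118 CPM in Ctrl, 93.6, 78.2 and 97.5 CPM in cKO and 92.6, 143 and 91.0 CPM in dcKO. The cKO embryos were below Ctrl and the second dcKO embryo above it, with log2 fold changes of -0.32 ± 0.20 (adjusted p = 0.34, edgeR) and -0.04 ± 0.20 (adjusted p = 0.90, edgeR). Incenp, the scaffold of that complex, measured 229, 215 and 200.5 CPM in Ctrl, 198, 198 and 189 CPM in cKO and 163, 154 and 248 CPM in dcKO. On the log2 scale Incenp differed from Ctrl by -0.14 ± 0.19 in cKO and -0.19 ± 0.19 in dcKO, signs that turned with the GC correction (0.04 in cKO and 0.12 in dcKO). Aurkb, the kinase of the complex, measured 181, 169 and 153 CPM in Ctrl, 148, 142 and 154 CPM in cKO and 121, 95.9 and 187 CPM in dcKO. The first and second dcKO embryos lay below Ctrl and the third above it, and its log2 fold change in dcKO was -0.31 ± 0.23 (adjusted p = 0.37, edgeR). Plk1 and Aurka, kinases that build the spindle poles, had log2 fold changes of 0.06 and 0.04 in cKO and -0.05 and -0.04 in dcKO. The GC correction gave cKO and dcKO log2 fold changes of 0.35 and 0.30 for Plk1, 0.01 and -0.01 for Aurka and -0.13 and -0.20 for Aurkb. They were -0.49 and -0.28 for Birc5 and -0.24 and -0.28 for Cdca8. With upper-quartile factors the cKO sign of Cdca8 turned. Leaving out 1 embryo in turn moved or turned, in cKO, Plk1 (-0.04 without Ctrl 3 to 0.19 without Ctrl 1), Aurka (-0.0023 without cKO 3 to 0.08 without cKO 1) and Aurkb (-0.24 without Ctrl 3 to -0.12 without Ctrl 1). The same held for Incenp (-0.19 without Ctrl 3 to -0.09 without Ctrl 1) and Cdca8 (-0.17 without Ctrl 3 to -0.03 without Ctrl 1). Leaving out 1 embryo in turn moved or turned, in dcKO, Plk1 (-0.67 without dcKO 3 to 0.26 without dcKO 2), Aurka (-0.24 without dcKO 3 to 0.11 without dcKO 2) and Aurkb (-0.63 without dcKO 3 to -0.12 without dcKO 2). The same held for Birc5 (-0.29 without dcKO 2 to 0.07 without dcKO 3), Incenp (-0.44 without dcKO 3 to -0.06 without dcKO 2) and Cdca8 (-0.38 without dcKO 3 to 0.0031 without dcKO 2).

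In the spindle checkpoint the kinase gene Ttk gave the largest fold changes and the largest standard errors. Of the 5 genes in this group, 3 were above 0 on the log2 fold change scale in cKO (median 0.09, from -0.14 to 0.36) and 4 in dcKO (median 0.47, from -0.17 to 0.90, with a median of 0.19 without the second dcKO embryo and 0.74 without the third), and after a correction for GC content 2 and 2 were. Ttk, whose kinase recruits the checkpoint to kinetochores, measured 36.4, 40.1 and 71.3 CPM in Ctrl, 54.1, 67.1 and 69.2 CPM in cKO and 129, 79.5 and 67.2 CPM in dcKO. The third Ctrl embryo overlapped both mutants, and log2 fold changes were 0.36 ± 0.31 in cKO (adjusted p = 0.47, edgeR) and 0.90 ± 0.31 in dcKO (adjusted p = 0.095, edgeR). Bub1b, encoding the checkpoint inhibitor BubR1, measured 279.5, 266 and 292 CPM in Ctrl, 356, 328 and 357 CPM in cKO and 384, 289 and 346 CPM in dcKO. All cKO embryos lay above Ctrl, and log2 fold changes were 0.31 ± 0.16 in cKO (adjusted p = 0.23, edgeR) and 0.28 ± 0.16 in dcKO (adjusted p = 0.26, edgeR). Its partners Bub3, Bub1 and Mad2l1 had log2 fold changes of -0.14, 0.09 and -0.05 in cKO and -0.17, 0.47 and 0.54 in dcKO. After the GC correction the log2 fold changes in cKO and dcKO were -0.17 and -0.13 for Bub1, 0.25 and 0.24 for Bub1b and -0.30 and -0.35 for Bub3. They were -0.30 and -0.07 for Mad2l1 and 0.11 and 0.43 for Ttk. With upper-quartile factors the cKO sign of Mad2l1 turned. In cKO, leaving out 1 embryo moved or turned Bub1 (0.01 without Ctrl 2 to 0.13 without Ctrl 3), Mad2l1 (-0.12 without cKO 3 to 0.03 without cKO 2) and Ttk (0.19 without Ctrl 1 to 0.73 without Ctrl 3). In dcKO, leaving out 1 embryo moved or turned Bub1 (0.19 without dcKO 2 to 0.74 without dcKO 3), Bub1b (0.19 without dcKO 1 to 0.39 without dcKO 2) and Bub3 (-0.33 without dcKO 3 to -0.09 without dcKO 2). The same held for Mad2l1 (0.16 without dcKO 2 to 0.81 without dcKO 3) and Ttk (0.57 without dcKO 1 to 1.27 without Ctrl 3).

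The kinetochore and centromere genes lay on both sides of the control level. Of the 7 genes in this group, 4 were above 0 on the log2 fold change scale in cKO (median 0.09, from -0.59 to 0.53) and 5 in dcKO (median 0.58, from -0.51 to 0.77, with a median of 0.23 without the second dcKO embryo and 0.82 without the third), and after a correction for GC content 2 and 5 were. Ndc80, the microtubule-binding arm of the outer kinetochore, measured 55.8, 44.2 and 51.9 CPM in Ctrl, 67.6, 76.1 and 75.0 CPM in cKO and 104, 90.6 and 63.7 CPM in dcKO. Every mutant embryo exceeded every Ctrl embryo, and log2 fold changes were 0.53 ± 0.20 in cKO (adjusted p = 0.13, edgeR) and 0.77 ± 0.20 in dcKO (adjusted p = 0.057, edgeR). Nuf2, its direct partner, gave 0.52 ± 0.20 and 0.75 ± 0.20, whereas the remaining subunits of the same complex gave -0.52 ± 0.24 and -0.11 ± 0.24 (Spc24) and -0.08 ± 0.34 and 0.47 ± 0.34 (Spc25). The cKO sign of Spc25 turned with upper-quartile factors. Cenpa (ENSMUSG00000029177.10), the histone variant that marks centromeres, measured 138, 132 and 125 CPM in Ctrl, 91.5, 74.4 and 95.9 CPM in cKO and 71.6, 114 and 91.9 CPM in dcKO. All mutant embryos were below Ctrl, and log2 fold changes were -0.59 ± 0.19 in cKO (adjusted p = 0.090, edgeR) and -0.51 ± 0.19 in dcKO (adjusted p = 0.12, edgeR). DESeq2 gave adjusted p-values of 0.045 and 0.075. Cenpf, a large kinetochore protein of G2 and mitosis, measured 199.8, 172 and 216 CPM in Ctrl, 225, 181 and 219 CPM in cKO and 298, 421 and 161 CPM in dcKO. On the log2 scale Cenpf differed from Ctrl by 0.09 ± 0.29 in cKO, where the sign turned with the GC correction (-0.19), and 0.58 ± 0.29 in dcKO (adjusted p = 0.21, edgeR). Cenpe, the kinesin that moves chromosomes to the spindle equator, gave 0.27 and 0.61. The GC correction gave cKO and dcKO log2 fold changes of 0.26 and 0.22 for Nuf2, -0.46 and 0.04 for Spc24 and -0.36 and -0.14 for Spc25. They were -0.0029 and 0.09 for Cenpe and -0.19 and 0.03 for Cenpf. Leaving out 1 embryo in turn moved or turned, in cKO, Spc25 (-0.11 without Ctrl 2 to -0.03 without cKO 2), Cenpe (0.16 without Ctrl 2 to 0.35 without cKO 2) and Cenpf (0.0014 without Ctrl 2 to 0.18 without cKO 2). Leaving out 1 embryo in turn moved or turned, in dcKO, Spc24 (-0.44 without dcKO 3 to 0.05 without dcKO 1), Spc25 (-0.05 without dcKO 2 to 0.80 without dcKO 3) and Cenpe (0.37 without dcKO 2 to 0.82 without dcKO 3). The same held for Cenpf (0.23 without dcKO 2 to 0.88 without dcKO 3).

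The anaphase-promoting complex genes held the largest fold change in cKO and the widest replicate spread relative to the mean in dcKO. Of the 4 genes in this group, 2 were above 0 on the log2 fold change scale in cKO (median 0.01, from -0.76 to 0.91) and 1 in dcKO (median -0.19, from -0.78 to 0.31, with a median of -0.07 without the second dcKO embryo and -0.43 without the third), and after a correction for GC content 3 and 3 were. Pttg1, encoding securin, the inhibitor of separase that the complex destroys, measured 10.4, 11.95 and 10.9 CPM in Ctrl, 19.2, 22.4 and 20.7 CPM in cKO and 16.6, 8.40 and 16.4 CPM in dcKO. Each cKO embryo lay above each Ctrl and each dcKO embryo, the second dcKO embryo lay below Ctrl, and log2 fold changes were 0.91 ± 0.29 in cKO (adjusted p = 0.085, edgeR) and 0.31 ± 0.28 in dcKO (adjusted p = 0.48, edgeR). DESeq2 gave Pttg1 an adjusted p-value of 0.021 in cKO. Fzr1, the co-activator Cdh1 that keeps the complex active after mitosis, measured 158, 129 and 89.4 CPM in Ctrl, 66.3, 95.4 and 59.7 CPM in cKO and 26.8, 21.6 and 170.3 CPM in dcKO. The first and second dcKO embryos were far below the third, and log2 fold changes were -0.76 ± 0.66 in cKO (adjusted p = 0.49, edgeR) and -0.78 ± 0.66 in dcKO (adjusted p = 0.45, edgeR). With the highest GC content of the set (59.9%), Fzr1 gave -0.12 in cKO and -0.34 in dcKO after the GC correction. Ube2c, the ubiquitin-conjugating enzyme of the complex, measured 263, 238 and 251 CPM in Ctrl, 249, 245 and 239.6 CPM in cKO and 219, 235 and 236 CPM in dcKO. Its dcKO values lay just below Ctrl, with log2 fold changes of -0.04 ± 0.14 in cKO and -0.12 ± 0.14 in dcKO, whose signs turned with the GC correction (0.20 in cKO and 0.36 in dcKO) and, in cKO, with upper-quartile factors. Cdc20, the co-activator held by the checkpoint, gave 0.05 and -0.26. Exons of 11 of the 44 genes overlap a gene on the other strand, among them Fzr1, Ube2c and Cdc20 (with Mfsd12, Tnnc2 and Elovl1), and whether the counting used strand was not stated in the sources used here. The others are Ccna2, Cdc25b, Cdc25c, Cdca8, Ncapg, Nusap1, Plk1 and Prc1. After the GC correction the log2 fold changes in cKO and dcKO were 0.30 and 0.09 for Cdc20 and 0.71 and 0.06 for Pttg1. In cKO, leaving out 1 embryo moved or turned Cdc20 (0.02 without cKO 3 to 0.09 without cKO 2) and Ube2c (-0.07 without Ctrl 2 to -0.00099 without Ctrl 1). In dcKO, leaving out 1 embryo moved or turned Cdc20 (-0.72 without dcKO 3 to -0.01 without dcKO 2), Fzr1 (-2.37 without dcKO 3 to -0.35 without dcKO 2) and Pttg1 (0.16 without dcKO 1 to 0.57 without dcKO 2).

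For chromosome structure the fold changes pointed one way in the fit to all 9 embryos. Of the 6 genes in this group, all 6 were above 0 on the log2 fold change scale in cKO (median 0.20, from 0.02 to 0.47) and 6 in dcKO (median 0.50, from 0.31 to 0.74, with a median of 0.24 without the second dcKO embryo and 0.77 without the third), and after a correction for GC content 2 and 2 were. Top2a measured 964, 903 and 1052 CPM in Ctrl, 1022, 974 and 1094 CPM in cKO and 1379.5, 1670.4 and 815 CPM in dcKO. The cKO embryos overlapped Ctrl and the dcKO embryos lay on both sides of it, with log2 fold changes of 0.08 ± 0.25 and 0.41 ± 0.25 (adjusted p = 0.86 and 0.29, edgeR), whose signs turned with the GC correction (-0.19 in cKO and -0.11 in dcKO). Ncaph, the kleisin of condensin I, measured 156, 147 and 154 CPM in Ctrl, 217, 207 and 206 CPM in cKO and 199, 173 and 195 CPM in dcKO. All mutant embryos exceeded all Ctrl embryos, and log2 fold changes were 0.47 ± 0.14 in cKO (adjusted p = 0.074, edgeR) and 0.31 ± 0.14 in dcKO (adjusted p = 0.17, edgeR). Smc4, an ATPase of condensin, measured 283, 230.3 and 283 CPM in Ctrl, 295, 296 and 341 CPM in cKO and 436, 640.2 and 256 CPM in dcKO. The third dcKO embryo lay within the Ctrl range, and log2 fold changes were 0.23 ± 0.28 in cKO (adjusted p = 0.63, edgeR) and 0.74 ± 0.28 in dcKO (adjusted p = 0.12, edgeR), with -0.02 in cKO and 0.12 in dcKO after the GC correction. Smc2, its partner ATPase, Ncapg, the HEAT subunit, and Mki67, the chromosome surfactant Ki-67, gave 0.02, 0.25 and 0.17 in cKO and 0.60, 0.63 and 0.32 in dcKO. The GC correction gave cKO and dcKO log2 fold changes of -0.22 and -0.09 for Smc2, 0.08 and -0.02 for Ncapg and 0.34 and 0.16 for Ncaph. They were -0.02 and -0.02 for Mki67. Leaving out 1 embryo in turn moved or turned, in cKO, Top2a (0.03 without cKO 3 to 0.14 without Ctrl 3), Smc2 (-0.02 without Ctrl 2 to 0.07 without cKO 2) and Smc4 (0.14 without Ctrl 2 to 0.28 without Ctrl 1). The same held for Mki67 (0.05 without cKO 1 to 0.32 without Ctrl 3). Leaving out 1 embryo in turn moved or turned, in dcKO, Top2a (0.17 without dcKO 2 to 0.65 without dcKO 3), Smc2 (0.08 without dcKO 2 to 0.94 without dcKO 3) and Smc4 (0.38 without dcKO 2 to 1.02 without dcKO 3). The same held for Ncapg (0.32 without dcKO 2 to 0.89 without dcKO 3) and Mki67 (0.03 without dcKO 2 to 0.59 without dcKO 3).

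Spindle assembly and cytokinesis held Hmmr, Nusap1, Ect2 and Prc1, which were higher in all mutant embryos. Exons of Nusap1 and Prc1 overlap Oip5 and Rccd1 on the other strand, so their counts may depend on the unknown strand setting. Of the 4 spindle assembly genes, 3 were above 0 on the log2 fold change scale in cKO (median 0.22, from -0.01 to 0.66) and 4 in dcKO (median 0.52, from 0.27 to 0.77, with a median of 0.38 without the second dcKO embryo and 0.74 without the third), and after a correction for GC content 2 and 4 were. Hmmr, a microtubule-binding protein of the spindle poles, measured 84.0, 79.5 and 85.2 CPM in Ctrl, 120.2, 134 and 139 CPM in cKO and 168, 159 and 97.7 CPM in dcKO. Every mutant embryo was above Ctrl, and log2 fold changes were 0.66 ± 0.21 in cKO (adjusted p = 0.082, edgeR) and 0.77 ± 0.21 in dcKO (adjusted p = 0.058, edgeR). DESeq2 gave adjusted p-values of 0.046 and 0.019. Kpna2 measured 632, 691 and 837 CPM in Ctrl, 741, 642 and 765 CPM in cKO and 1065, 1173 and 646 CPM in dcKO. On the log2 scale Kpna2 differed from Ctrl by -0.01 ± 0.24 in cKO, positive with upper-quartile factors, and 0.42 ± 0.24 in dcKO. Tpx2, the activator of Aurora A on the spindle, and Nusap1, a microtubule bundler, gave 0.13 and 0.31 in cKO and 0.27 and 0.62 in dcKO. After the GC correction the log2 fold changes in cKO and dcKO were -0.02 and 0.05 for Tpx2, 0.04 and 0.08 for Nusap1 and -0.21 and 0.07 for Kpna2. In cKO, leaving out 1 embryo moved or turned Kpna2 (-0.09 without Ctrl 1 to 0.11 without Ctrl 3). In dcKO, leaving out 1 embryo moved or turned Tpx2 (0.14 without dcKO 2 to 0.44 without dcKO 3) and Kpna2 (0.25 without dcKO 2 to 0.64 without dcKO 3).

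Of the 4 cytokinesis genes, 3 were above 0 on the log2 fold change scale in cKO (median 0.45, from -0.19 to 0.51) and 3 in dcKO (median 0.58, from -0.19 to 0.69, with a median of 0.55 without the second dcKO embryo and 0.75 without the third), and after a correction for GC content 3 and 3 were. Ect2, the exchange factor that activates RhoA at the division plane, measured 175, 172 and 202 CPM in Ctrl, 252, 261 and 269.6 CPM in cKO and 355, 312 and 222 CPM in dcKO. Both mutants lay above Ctrl in every embryo, and log2 fold changes were 0.51 ± 0.19 in cKO (adjusted p = 0.12, edgeR) and 0.69 ± 0.19 in dcKO (adjusted p = 0.061, edgeR). Prc1, which bundles the central spindle, gave 0.51 ± 0.19 and 0.61 ± 0.19, and Anln, the anillin scaffold of the ring, 0.39 ± 0.20 and 0.54 ± 0.20. Racgap1, the centralspindlin subunit that binds Ect2, measured 369, 362 and 379 CPM in Ctrl, 339, 308 and 329 CPM in cKO and 306, 337 and 333 CPM in dcKO. All mutant embryos were slightly below Ctrl, and log2 fold changes were -0.19 ± 0.14 in cKO (adjusted p = 0.42, edgeR) and -0.19 ± 0.14 in dcKO (adjusted p = 0.39, edgeR). The GC correction gave cKO and dcKO log2 fold changes of 0.17 and 0.16 for Anln, 0.24 and 0.14 for Prc1 and -0.39 and -0.46 for Racgap1.

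**Figure D2:**
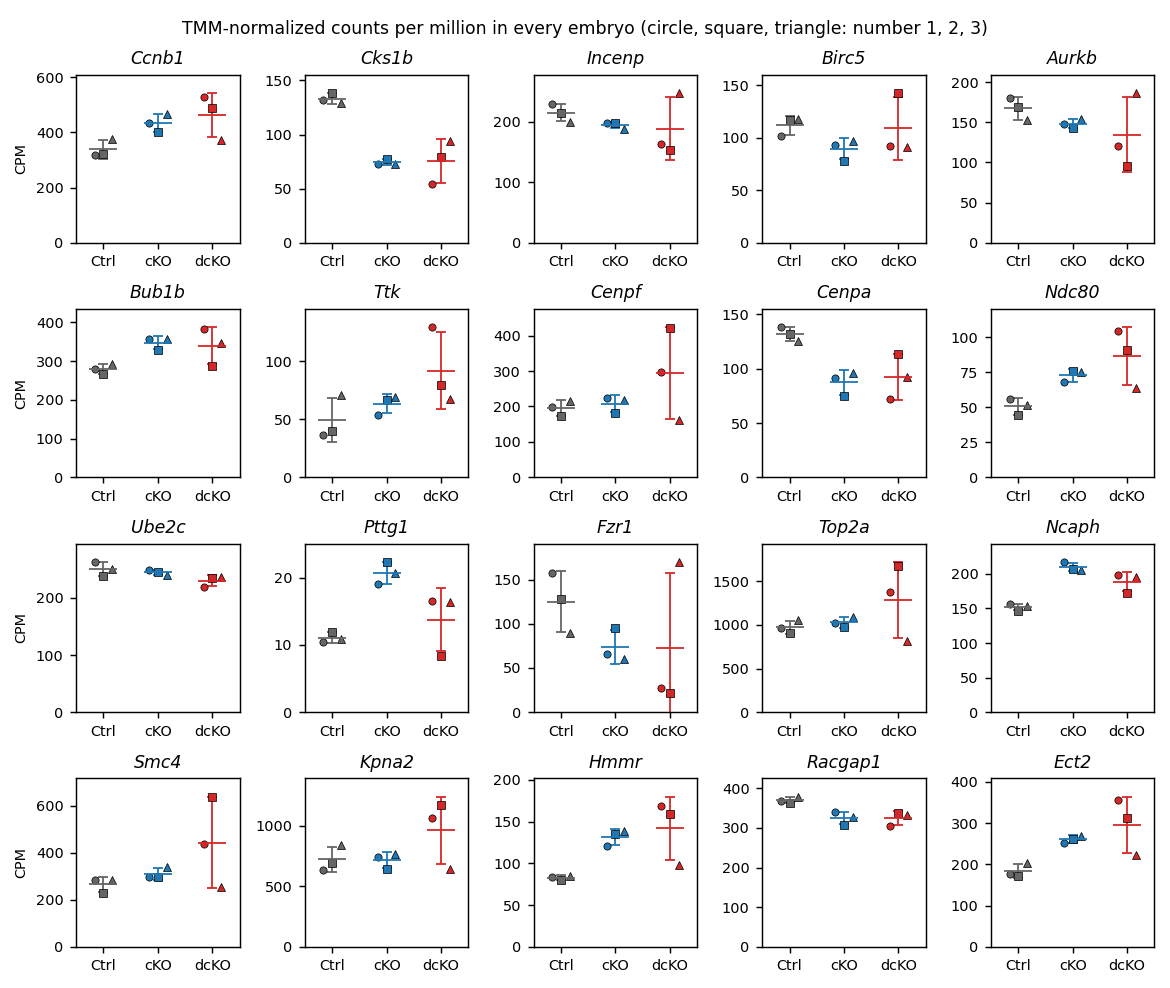
TMM-normalized CPM (vertical axis, from 0) is plotted for 20 genes in Ctrl (grey), cKO (blue) and dcKO (red), 1 symbol for each embryo with the mean and SD of 3 as a bar and whiskers. Cks1b and Cenpa are below Ctrl in all mutant embryos and Hmmr, Ndc80, Ncaph and Ect2 above, while Fzr1 and Top2a spread widely in dcKO, where the lower whisker of Fzr1 runs below the axis.

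Genes poor in GC had the higher fold changes. The 19 genes under 45% GC had median log2 fold changes of 0.27 in cKO and 0.61 in dcKO, and all 19 lay above 0 in dcKO. Over all tested genes under 45% GC the medians were 0.22 and 0.52. The 10 genes at 50% or more had a median of -3.7e-05 in cKO (5 above 0), where all tested genes of that GC content had -0.23, and of -0.12 in dcKO, where all those genes had -0.30. The dcKO medians without the second and without the third dcKO embryo were 0.38 and 0.86 under 45% GC and 0.0022 and -0.44 at 50% or more. Across the 44 genes Pearson's r between GC content and log2 fold change was -0.49 in cKO and -0.79 in dcKO, and across 13561 tested genes -0.37 and -0.57. These are descriptions across genes measured in the same libraries, and genes are not independent replicates. The set is poorer in GC than the tested genes, with a median of 46.1% against 49.4%.

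With a loess correction for GC content in each embryo, the median log2 fold change of the 44 genes became 0.02 in cKO (23 above 0) and 0.06 in dcKO (26 above 0), against -0.03 and -0.02 over all genes with a GC value. By edgeR after this correction, 9 of the 44 had an unadjusted p-value under 0.05 in cKO (background 34.9%) and 5 in dcKO (background 26.4%). Cks1b kept its distance from control, with -0.93 ± 0.21 in cKO (adjusted p = 0.033, edgeR) and -0.91 ± 0.21 in dcKO (adjusted p = 0.056, edgeR). Cenpa did so as well, with -0.71 ± 0.18 (adjusted p = 0.039, edgeR) and -0.64 ± 0.18 (adjusted p = 0.075, edgeR). These were the only genes of the 44 to pass the adjusted p-value in cKO with the correction (4.55%, background 10.5%), a smaller share than over all genes, and none passed in dcKO (background 0.0369%). The corrected log2 fold changes of genes that were higher in all mutant embryos were smaller, at 0.39 and 0.23 for Hmmr, 0.25 and 0.26 for Ndc80 and 0.26 and 0.17 for Ect2.

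**Figure D3:**
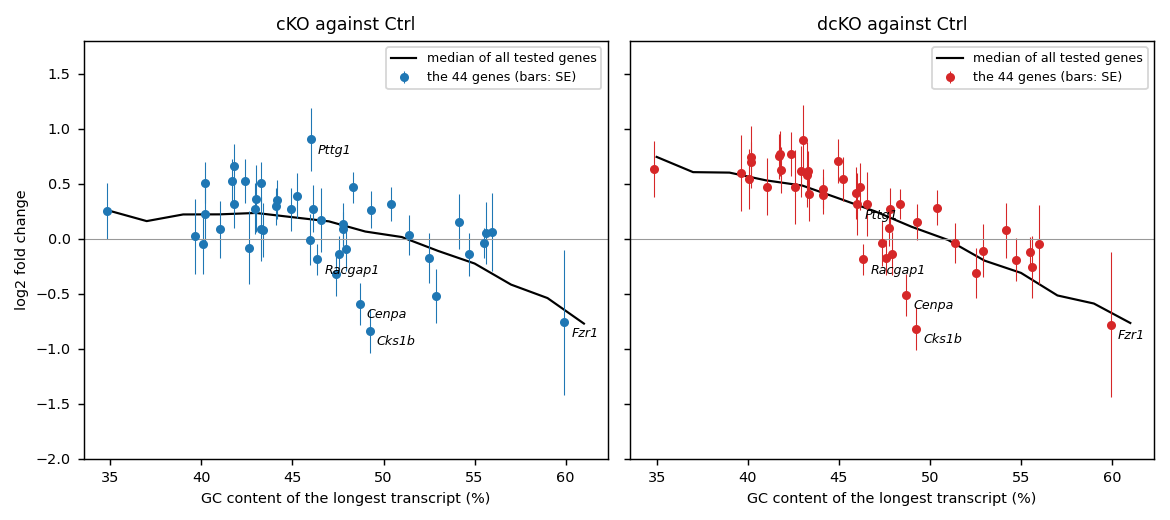
The log2 fold change (vertical axis) is plotted against the GC content of the longest transcript (horizontal axis, %) for the 44 genes, with bars of 1 SE, in cKO (left) and dcKO (right), beside the median of all tested genes in bins of GC content (black line). Points of low GC content lie near the line above 0 in dcKO, and Cks1b and Cenpa lie below the line in both mutants.

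**Figure D4:**
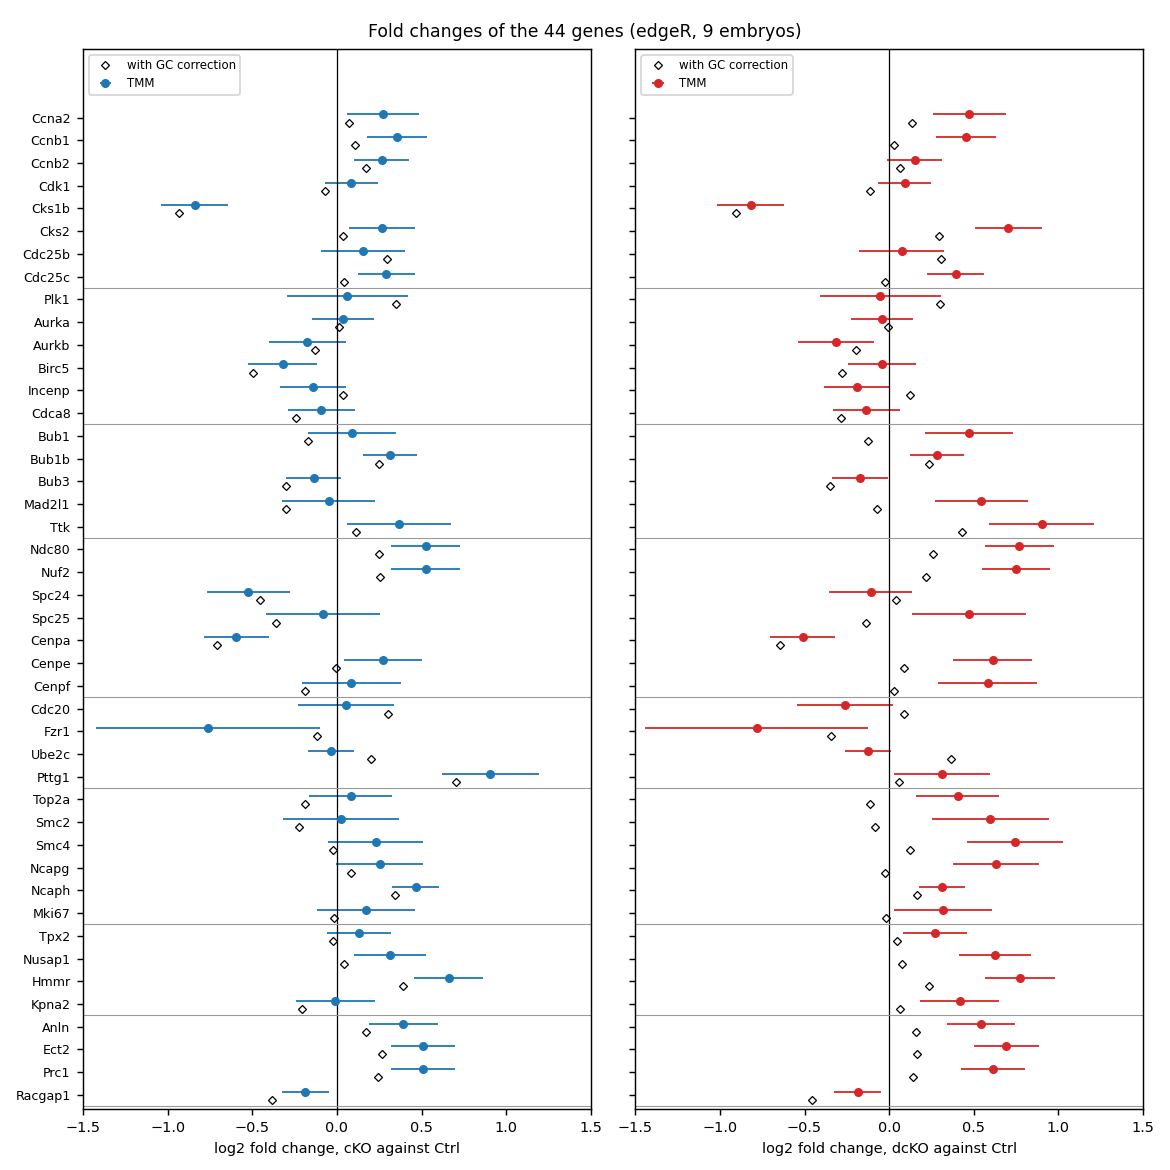
The log2 fold change of each gene against Ctrl (horizontal axis) is plotted as a filled point with 1 SE, in cKO (left) and dcKO (right), with the value after the GC correction as an open diamond. Lines part the 8 role groups. Diamonds of most genes to the right of 0 move toward 0, and those of Cks1b, Cenpa and Racgap1 lie further to the left.

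The dcKO embryos were unlike each other in these genes. The median log2 ratio of the 44 genes to the Ctrl mean was 0.46 in the first, 0.54 in the second and 0.12 in the third, against 0.07 to 0.18 in the cKO embryos and -0.05 to 0.05 in the Ctrl embryos themselves. Genes under 45% GC had medians of 0.65, 0.93 and 0.08 in the 3 dcKO embryos, and genes at 50% or more -0.39, -0.53 and 0.34. The third dcKO embryo thus differed from the others in the sign of the second group. Smc2 (second embryo 453 CPM, last 133) and Spc25 (176 and 53.6) were high in the second and low in the third, and Plk1 (79.3 and 261) the reverse. Leaving out the second or the third dcKO embryo moved the dcKO log2 fold change of 26 of the 44 genes by over 1.5 times or turned its sign, and leaving out any 1 of the 9 embryos did so for 28 in dcKO and 20 in cKO. The 15 genes that were moved less in both mutants under every such omission were Ccna2, Ccnb1, Cks1b, Cks2, Cdc25c, Ndc80, Nuf2, Cenpa, Ncaph, Nusap1, Hmmr, Anln, Ect2, Prc1 and Racgap1.

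Calls in dcKO turned on these embryos. Without the third dcKO embryo, edgeR on the remaining 8 passed 24 of the 44 genes upward (background 25.5%) and 9 downward (background 23.7%) at an adjusted p-value under 0.05 in dcKO. Of these, 4 passed the fold limit as well (background 23.7%), namely Ttk (1.08), Smc4 (1.02), Cks1b (-1.002) and Fzr1 (-2.37). Without the second dcKO embryo, which kept the most Cnot3 and Trp53, 4 passed (background 18.1%), Ndc80 and Ect2 upward and Cks1b and Cenpa downward. Cks1b, Ndc80 and Ect2 passed the adjusted p-value in both of these fits. The cKO comparison shares its estimate of the spread with dcKO, and there 3, 5 and 14 genes passed without each dcKO embryo in turn (first, second and last, backgrounds 12.6%, 18.5% and 29.7%).

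With all 9 embryos, no gene of the set passed the edgeR test between the mutants. In dcKO against cKO, 29 of the 44 genes lay above 0 with a median log2 fold change of 0.13, against 0.07 over all tested genes, and 0 had an unadjusted p-value under 0.05 in edgeR (background 4.42%). This median was 0.07 without the second dcKO embryo and 0.29 without the third. It was 0.03 with upper-quartile factors and 0.0051 with the GC correction. All dcKO embryos lay above all cKO embryos for 0 genes (background 2.62%) and below them for 3 (background 3.63%). The latter were Pttg1, at -0.59 ± 0.28 (adjusted p = 0.89, edgeR), Ncaph at -0.15 ± 0.14 and Ube2c at -0.09 ± 0.14. Without the second dcKO embryo these values were -0.33, -0.09 and -0.11. With the GC correction they were -0.64, -0.18 and 0.16, so the sign of Ube2c turned. Without the third dcKO embryo, 17 genes passed the adjusted p-value (background 26.6%). Fzr1 alone of the 44 passed the fold limit as well, at -1.61, where 1236 of all 13680 tested genes did. With all embryos, Cks1b differed between the mutants by 0.02 ± 0.20 and Cenpa by 0.08 ± 0.19.

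Further genes of the same pathways also lay on both sides of control. Of 87 further mitotic genes tested (transcriptional regulators, Greatwall pathway, anaphase-promoting complex, cohesin, condensin, kinetochore, spindle and midbody genes), 51 lay above 0 in cKO (median 0.06) and 60 in dcKO (median 0.22), and none passed the adjusted p-value in edgeR with all 9 embryos. At an unadjusted p-value under 0.05 in edgeR, 15 were higher (17.2%, background 15.3%) and 10 lower (11.5%, background 11.7%) in cKO, shares near those of all tested genes. In dcKO 29 were higher (33.3%, background 18.0%) and 9 lower (10.3%, background 11.2%), differences from background that were not tested. At an adjusted p-value under 0.05, DESeq2 passed 5 higher (background 9.60%) and 8 lower (background 7.07%) in cKO. In dcKO it passed 14 higher (background 10.3%) and 6 lower (background 7.40%). On the 6 Ctrl and cKO embryos edgeR passed 29 higher (background 24.0%) and 23 lower (background 24.2%). In dcKO without the third dcKO embryo edgeR passed 39 higher (background 25.5%) and 21 lower (background 23.7%). For these genes the counts without the second dcKO embryo are not given here. The 2 lowest in cKO were Cenpm, a subunit of the inner kinetochore, at -1.48 ± 0.49 in cKO and -0.99 ± 0.48 in dcKO, and Cit, the citron kinase of the midbody, at -1.28 ± 0.35 and -1.28 ± 0.35. Cit measured 71.8, 59.8 and 59.2 in Ctrl, 28.6, 22.7 and 27.1 in cKO and 12.1, 37.3 and 29.4 CPM in dcKO, so that no mutant embryo reached the Ctrl range, while Cenpm measured 36.6, 24.9 and 17.9 in Ctrl, 9.30, 10.3 and 8.86 in cKO and 6.27, 8.51 and 25.3 CPM in dcKO, with the third dcKO embryo within that gene's Ctrl range. The 2 highest were Oip5, which loads Cenpa onto centromeres, at 0.86 ± 0.24 and 1.25 ± 0.24, and Ckap2, a spindle microtubule protein, at 0.85 ± 0.19 and 0.50 ± 0.18. Oip5 measured 9.99, 9.77 and 14.2 in Ctrl, 20.5, 19.7 and 21.5 in cKO and 32.4, 25.6 and 23.1 CPM in dcKO, above Ctrl in every mutant embryo, but its exons overlap those of Nusap1 on the other strand. Ckap2 measured 87.4, 71.4 and 74.3 in Ctrl, 143, 152 and 126 in cKO and 120.3, 125 and 85.4 CPM in dcKO, again with the third dcKO embryo within the Ctrl range. With the GC correction the log2 fold changes in cKO and dcKO became -1.19 and -0.68 for Cenpm, -1.14 and -0.95 for Cit, 0.63 and 0.88 for Oip5 and 0.58 and 0.00037 for Ckap2, and the medians of the 87 genes 0.02 and 0.01. The 24 tested S phase genes had medians of -0.12 in cKO and -0.08 in dcKO. Without the second and without the third dcKO embryo the dcKO medians were 0.10 and 0.36 for the 87 genes and -0.13 and -0.09 for the S phase genes.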

How the data were processed

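RNA from cortical tissue of 9 single mouse embryos was sequenced on stranded, poly(A)-selected libraries, and the embryos are separate animals. Per the submitters' processing notes, the authors used FastQC, cutadapt, STAR on mm39, featureCounts and DESeq2. They deposited whole-number counts of reads for each of 57010 genes, with no normalization or filter (tool versions and the strand setting of the counting are not given in the sources used here). Each column was assigned to its genotype by the label of the embryo. Libraries held 21193798 to 45073349 counted reads.

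From the deposited counts, edgeR 4.0.16 (R 4.3.3) was run with TMM factors, and genotypes were compared by quasi-likelihood tests in a single model over all embryos. A gene was tested (13680 were) if each embryo had more than 10 of its reads. Standard errors were obtained as the absolute log2 fold change over the root of the F statistic. DESeq2 1.42.0 was run at its defaults on these genes. CPM use TMM factors of the tested genes. Exact two-sided permutation tests used log2 CPM with a prior count of 0.5. The alternatives were RLE and upper-quartile factors, no filter, filterByExpr, the 6 embryos compared, each embryo left out, the replicate number as a block, a loess correction for GC content (span 0.3, in each embryo) and both together. The fits were also run on simulated counts with known changes in cKO, and the outcome is not given here. Apart from library size, those counts had the same expected level in every embryo of a genotype. They therefore cannot show how the fits behave with unequal dcKO embryos.

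Symbols, transcript lengths and GC content came from GENCODE M21 on GRCm38 through Ensembl identifiers (52029 matched), and promoters from RefSeq on GRCm38.p6. The members and lists were chosen with earlier results of these data known. Values of every embryo are given for the gene of each role group with the highest mean CPM in Ctrl, the largest absolute log2 fold change in cKO and the largest in dcKO, and for both deleted genes. Of the other mitotic genes, at most 2 in each direction are named. Genes named beside counts of embryos or of calls were named after their values were seen. Lin54 was not analysed here.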

Additional observations from a re-analysis of the deposited data

How the results depend on the processing

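Called genes among all tested in cKO against Ctrl (2) numbered 424 with upper-quartile factors, 813 without the filter, 1758 with the 6 embryos alone, 1206 with DESeq2, 0 with the replicate block and 613 with the GC correction. In dcKO against Ctrl (0) they numbered 692 without the filter, 1157 with DESeq2 and 5 with the GC correction, and in dcKO against cKO (2) 8, 52 and 11, with 0 for the 6 embryos and 0 for the replicate block. Of the 44 genes, 1 passed the adjusted p-value in cKO against Ctrl without the filter, 20 with the 6 embryos, 5 with DESeq2 and 2 with the GC correction, against 0, where 3.67%, 48.2%, 16.7% and 10.5% of all tested genes passed. In dcKO against Ctrl 1 passed without the filter and 7 with DESeq2, against 0, where 3.08% and 17.7% of all did. Genes below 0 numbered 9 in cKO against Ctrl with upper-quartile factors and 23 in dcKO against cKO with block and GC correction together. The median log2 fold change of the 44 genes in cKO against Ctrl (0.11) became 0.22 with upper-quartile factors, 0.049 without the filter and with filterByExpr, 0.024 with the GC correction and 0.022 with the replicate block added. In dcKO against Ctrl (0.36) it became 0.26 without the filter, 0.28 with filterByExpr, 0.055 with the GC correction and 0.034 with the block added. In dcKO against cKO (0.13) it became 0.0299 with upper-quartile factors, 0.0051 with the GC correction and -0.0051 with the block added.

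With each embryo left out in turn, all tested genes called ranged over 0 to 1473, 0 to 3245 and 0 to 1236 in the 3 comparisons in that order. For the 44 genes the ranges were 0, 0 to 4 and 0 to 1 called, 0 to 14, 0 to 33 and 0 to 17 past the adjusted p-value, 12 to 16, 11 to 15 and 9 to 16 below 0 and medians of 0.078 to 0.18, 0.24 to 0.54 and 0.072 to 0.29. The upper ends of the counts past the adjusted p-value came without the third dcKO embryo, and no omission of a Ctrl or cKO embryo passed any of the 44. Of the 44 genes, the sign of the log2 fold change turned in the 3 comparisons for 11, 14 and 12 with the GC correction, 11, 14 and 14 with the block added, 5, 0 and 3 with upper-quartile factors, 3, 2 and 2 without the filter, 3, 0 and 1 with filterByExpr, and for Cdk1 in dcKO against cKO with DESeq2 and its size factors, and for 5, 8 and 19 when any embryo was left out. Among the 20 genes whose values are given in every embryo, it turned in cKO against Ctrl with the GC correction for Incenp (0.036), Cenpf (-0.19), Ube2c (0.20), Top2a (-0.19) and Smc4 (-0.022), with the block added for Incenp (0.037), Cenpf (-0.19), Ube2c (0.20), Top2a (-0.19) and Smc4 (-0.023) and with upper-quartile factors for Ube2c (0.0703) and Kpna2 (0.094). In dcKO against Ctrl the GC correction turned Incenp (0.12), Ube2c (0.36) and Top2a (-0.11), and with the block added Incenp (0.12), Ube2c (0.34) and Top2a (-0.11). In dcKO against cKO the GC correction turned Ccnb1 (-0.076), Incenp (0.087), Ube2c (0.16), Hmmr (-0.16) and Ect2 (-0.10), with the block added Ccnb1 (-0.081), Cks1b (-0.0043), Incenp (0.088), Ndc80 (-0.00596), Ube2c (0.14), Hmmr (-0.16) and Ect2 (-0.12), upper-quartile factors Cks1b (-0.072) and Cenpa (-0.017), no filter Cks1b (-0.015) and the replicate block alone Cks1b (-0.000741). With an embryo left out it turned among these 20 genes for Kpna2 (-0.094 to 0.11) in cKO against Ctrl, Birc5 (-0.29 to 0.072) in dcKO against Ctrl, Ccnb1 (-0.0077 to 0.23), Cks1b (-0.16 to 0.21), Incenp (-0.30 to 0.078), Aurkb (-0.45 to 0.056), Bub1b (-0.13 to 0.073), Cenpa (-0.094 to 0.24), Fzr1 (-1.61 to 0.41), Hmmr (-0.029 to 0.32) and Racgap1 (-0.038 to 0.042) in dcKO against cKO.

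The replicate numbers were not taken to pair embryos of different genotypes. Deviations from the genotype means correlated at -0.17 on average between embryos of the same number (from -0.54 to 0.13 over 9 pairs) and at 0.08 between those of different numbers. The library labels share another number between Ctrl 1 and cKO 2, Ctrl 2 and cKO 3, and Ctrl 3 and dcKO 3, whose meaning is not given. Those pairs correlated at 0.19, -0.01 and -0.54. The labels of cKO 1, dcKO 1 and dcKO 2 share none, and a grouping by this number was not tested. No gene of the set was called with or without the replicate block. The cause of the differences between settings was not tested. By design, each omission leaves fewer embryos and less filtering adds genes.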
